A study of Mus musculus with 7 samples.

Results

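The genes described here are complement components and regulators other than C1q, together with the acute phase serpin Serpina3n, in neutrophils sorted from injured mouse livers. They were chosen by symbol as C3, Cfb, Cfp, C1rl, Cd55, Cr1l, Serping1, Cd59a and Serpina3n. All 9 were among the 16047 genes of the deposited table, and all 9 were among the 9594 genes tested. Acetaminophen-induced liver injury (AILI) was produced in male C57BL/6 mice of 8 to 12 weeks by an i.p. injection of 300 mg/kg acetaminophen (APAP) after 12 h of fasting. One arm, "MC-21 neutrophils", came from 3 mice that also received 400 µL of medium conditioned with MC-21, an antibody to the chemokine receptor CCR2 that ablates Ly6Chi monocytes, at 29 µg antibody per ml. The other arm, "PBS neutrophils", came from 4 mice that received PBS in its place. The antibody injections began 12 h before APAP and were repeated every 24 h. From each liver 50000 cells with the phenotype CD11b+ Ly6Clo CX3CR1-GFP- Ly6G+ were sorted at 24 h following AILI and profiled by 3′ RNA-seq. The labels give the strain as C57BL/6, while the gate reads a GFP reporter of CX3CR1, which the study's Cx3cr1 gfp/+ mice carry; which genotype each sorted mouse had is not given in the sources used here. The control injection held no antibody, so effects of the antibody or its medium and of the missing monocytes cannot be told apart. The libraries held between about 1590000 mapped reads (MC-21 replicate 3) and 3960000 mapped reads (PBS replicate 8), and values are RPKM, read counts scaled to both the transcript's length and the depth of the library.

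Complement is a cascade of plasma proteins in which the classical, lectin and alternative pathways converge on the cleavage of C3. Its fragments mark particles for phagocytosis and attract neutrophils, while regulators on host cells and in plasma stop the cascade on self surfaces. Most circulating complement protein is made by hepatocytes, and myeloid cells make part of it locally. Neutrophils store properdin, the stabiliser of the alternative pathway convertase, in granules. Serpina3n is an inhibitor of serine proteases such as cathepsin G and is induced in the acute phase response.

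C3, C1rl and Serpina3n had higher levels in every MC-21 library than in any PBS library. These are also genes that the study itself picked from these libraries for display, so their direction is not independent evidence. Their 250 bases before the transcription start are shown because they are the members whose levels separated the groups. The sequences are from RefSeq (build GRCm38.p6, which differs from the mm9 build of the expression data), read 5′ to 3′ in the direction of transcription, from chr17:57228137-57228386 on the minus strand for C3, chr6:124492863-124493112 on the plus strand for C1rl and chr12:104406458-104406707 on the plus strand for Serpina3n. Capitals mark matches on either strand to a C/EBP motif (TTNNGNAA) or a kappaB motif (GGNNTTTCC), and no matches overlapped.
C3: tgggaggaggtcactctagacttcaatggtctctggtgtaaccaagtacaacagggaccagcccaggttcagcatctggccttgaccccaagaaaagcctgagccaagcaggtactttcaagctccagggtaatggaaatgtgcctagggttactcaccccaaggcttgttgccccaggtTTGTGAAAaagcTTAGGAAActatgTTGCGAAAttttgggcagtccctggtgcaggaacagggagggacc
C1rl: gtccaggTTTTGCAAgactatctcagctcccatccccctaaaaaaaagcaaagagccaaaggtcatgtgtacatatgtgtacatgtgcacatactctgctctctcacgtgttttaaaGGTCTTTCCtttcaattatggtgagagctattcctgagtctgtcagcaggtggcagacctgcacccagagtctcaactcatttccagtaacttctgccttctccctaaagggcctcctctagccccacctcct
Serpina3n: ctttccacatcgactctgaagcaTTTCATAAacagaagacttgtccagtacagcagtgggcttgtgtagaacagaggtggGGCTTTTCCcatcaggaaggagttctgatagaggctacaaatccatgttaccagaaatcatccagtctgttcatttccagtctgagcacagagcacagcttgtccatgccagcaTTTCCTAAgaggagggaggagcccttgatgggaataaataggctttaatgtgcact
The 3 C/EBP matches of C3 began 70, 58 and 45 bases before the start. In C1rl the C/EBP match began 243 bases and the kappaB match 133 bases before it. In Serpina3n the C/EBP matches began 227 and 56 bases and the kappaB match 170 bases before it. Of the 9 genes, 7 had a promoter in the RefSeq table, which spans 250 bases before and 50 bases after each start, and 3 of these 7 held a C/EBP match, 2 a kappaB match, 1 (Cd59a) an ISRE match (GAAANNGAA) and 0 a STAT match (TTCNNNGAA). Of all 32851 promoters of that length, 40.7% held the C/EBP motif, 5.82% the kappaB motif, 8.56% the ISRE motif and 8.30% the STAT motif. A match is a run of letters and does not show that a factor was bound.

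C3, the protein on which all pathways converge, was the most abundant of these 3 genes. In PBS neutrophils C3 stood at 22.9, 57.5, 28.0 and 39.3 RPKM in replicates 5, 6, 7 and 8. In MC-21 neutrophils it stood at 97.8, 72.3 and 76.5 RPKM in replicates 2, 3 and 4. The lowest MC-21 library was above the highest PBS library, and PBS replicate 6 lay closest to the MC-21 range. The group means were 37.0 ± 15.3 RPKM (SD, n = 4) and 82.2 ± 13.7 RPKM (SD, n = 3). On the log2(RPKM + 1) scale C3 was 2.30-fold higher in MC-21 neutrophils, a log2 fold change of 1.20 (SE 0.28) that did not pass the test across all genes (limma, adjusted p = 0.109, with 0.0314 to 0.304 over 14 alternatives). The two-sided exact permutation test over the 35 divisions of the 7 libraries gave p = 0.0571, where the smallest p that the design allows is 0.0286.

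C1rl, a serine protease related to the C1r protease of the classical pathway, was the lowest of the 9 by RPKM in PBS neutrophils. Its levels there were 2.76, 5.79, 4.37 and 3.19 RPKM in replicates 5 to 8. In MC-21 neutrophils they were 8.28, 9.81 and 8.84 RPKM in replicates 2 to 4, with no overlap between the groups. The means were 4.03 ± 1.36 RPKM (SD, n = 4) and 8.98 ± 0.776 RPKM (SD, n = 3). The log2 fold change was 1.02 (SE 0.23), or 2.03-fold, and did not pass (limma, adjusted p = 0.0906, with 0.044 to 0.26 over the alternatives; exact permutation p = 0.0571). As for C3, PBS replicate 6 was the highest of its group.

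Serpina3n, the acute phase serpin, had the largest log2 fold change of the 9 as reported, and that of C3 was larger without PBS replicate 6 or without MC-21 replicate 4 (1.44 against 1.35 and 1.25 against 1.16). It stood at 11.8, 18.6, 21.8 and 23.9 RPKM in PBS replicates 5 to 8. The MC-21 replicates 2 to 4 stood at 51.7, 34.7 and 63.5 RPKM, all above the PBS libraries. The means were 19.0 ± 5.28 RPKM (SD, n = 4) and 49.9 ± 14.5 RPKM (SD, n = 3). The log2 fold change of 1.35 (SE 0.27), or 2.55-fold, did not pass (limma, adjusted p = 0.0697, with 0.0432 to 0.304 over the alternatives). The exact permutation test gave p = 0.0286, the smallest that 35 divisions can give. PBS replicate 6, high for C3 and C1rl, was not the highest PBS library for this gene.

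**Figure D1:**
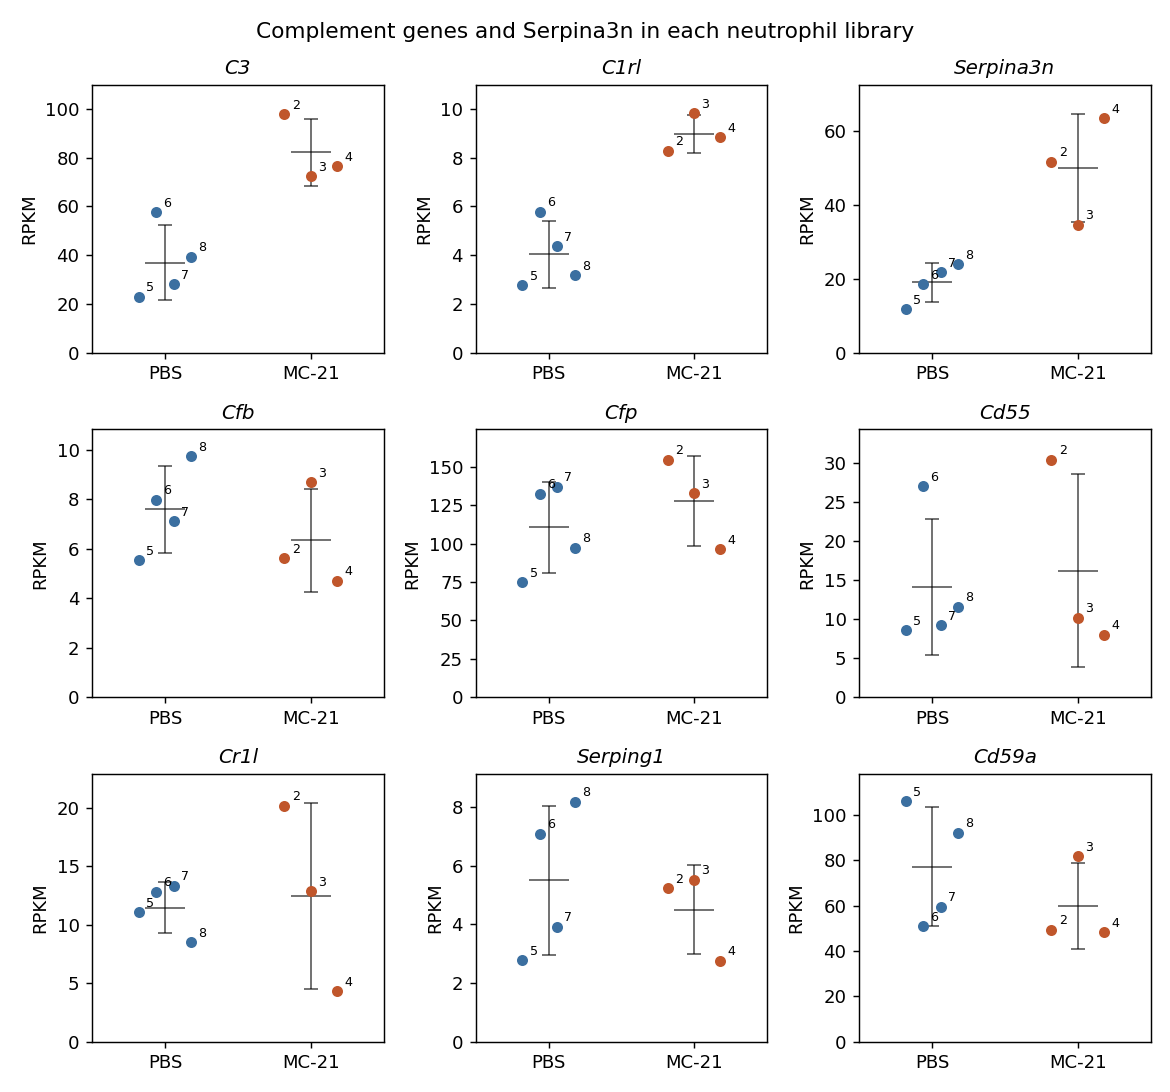
RPKM of each of the 9 genes in the 4 PBS and 3 MC-21 libraries. Points are libraries labelled with their replicate number, the horizontal mark is the group mean and the bar its SD. C3, C1rl and Serpina3n do not overlap between the groups and the other 6 do.

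By limma, 0 of the 9 genes had an adjusted p under 0.05, against 0.625% of all genes tested. With an unadjusted p under 0.05, 3 of 9 were higher in MC-21 neutrophils (3.59% of all genes tested) and 0 were lower (11.2% of all). Groups did not overlap, with MC-21 above PBS, in 3 of 9, against 3.1% of all genes tested, and with MC-21 below PBS in 0 of 9, against 10.2%. The median log2 fold change of the 9 was 0.11, and that of all genes tested was -0.15. The table favoured lower values in MC-21 neutrophils in general: 19 genes rose (0.198% of those tested) and 41 fell (0.427%), and the split became 44 and 30 with median centring of the libraries. The centring moved the median of all genes to 0.018, and Serpina3n then passed (limma, log2 fold change 1.51, adjusted p = 0.0432). Without PBS replicate 6, C3 (log2 fold change 1.44, adjusted p = 0.0314) and C1rl (1.18, adjusted p = 0.044) passed and Serpina3n did not.

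Properdin and factor B serve the alternative pathway. Cfp, which encodes properdin, was the highest of the 9 genes by RPKM in both groups, though not once the division by length was left out (below C3 in both). Its PBS libraries stood at 74.9, 133, 137 and 97.5 RPKM and its MC-21 libraries at 155, 133 and 96.3 RPKM, so that the ranges overlapped over most of their length. The log2 fold change was 0.22 (95% interval -0.32 to 0.77; limma, adjusted p = 0.707). Cfb, which encodes the protease subunit of the C3 convertase, stood at 5.53, 7.98, 7.12 and 9.74 RPKM in PBS and at 5.60, 8.69 and 4.71 RPKM in MC-21 neutrophils. Its log2 fold change was -0.24 (95% interval -0.79 to 0.30; limma, adjusted p = 0.685). In the annotation Cfb overlaps Gm20547, which holds 74.2% of its 50-base words, and reads of the shared stretch cannot be told apart.

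Among the surface regulators, Cd59a, which blocks the membrane attack complex, was the most abundant. It stood at 106, 51.0, 59.6 and 92.2 RPKM in PBS replicates 5 to 8 and at 49.5, 81.8 and 48.3 RPKM in MC-21 replicates 2 to 4. The ranges overlapped, with MC-21 replicate 3 among the PBS values, and the log2 fold change was -0.34 (95% interval -0.99 to 0.30; limma, adjusted p = 0.626). Cd55, the decay accelerating factor that takes C3 convertases apart, stood at 8.54, 27.0, 9.20 and 11.5 RPKM in PBS and at 30.4, 10.2 and 7.99 RPKM in MC-21 neutrophils. A single library of each group, PBS replicate 6 and MC-21 replicate 2, stood well above the others. The log2 fold change of Cd55 was 0.11 (95% interval -0.97 to 1.18; limma, adjusted p = 0.938) and -0.44 without MC-21 replicate 2, -0.062 without PBS replicate 5 and -0.030 without PBS replicate 7.

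Cr1l encodes Crry, the rodent membrane inhibitor of C3 activation. It stood at 11.1, 12.8, 13.3 and 8.51 RPKM in PBS and at 20.2, 12.9 and 4.33 RPKM in MC-21 neutrophils, whose 3 libraries held both the highest and the lowest of the 7 values. The log2 fold change was -0.08 (95% interval -0.99 to 0.83; limma, adjusted p = 0.944), and 0.080 under quantile normalization, 0.082 with median centring and 0.48 without MC-21 replicate 4. Serping1, which encodes the C1 inhibitor of plasma, stood at 2.78, 7.09, 3.93 and 8.18 RPKM in PBS and at 5.23, 5.52 and 2.77 RPKM in MC-21 neutrophils. Its log2 fold change was -0.19 (95% interval -0.96 to 0.58; limma, adjusted p = 0.83) and turned to 0.064 without MC-21 replicate 4 and 0.0072 without PBS replicate 8. For Cfp, Cfb and the 4 regulators the intervals included differences of either sign, and a p that misses the threshold does not show that the groups were alike.

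**Figure D2:**
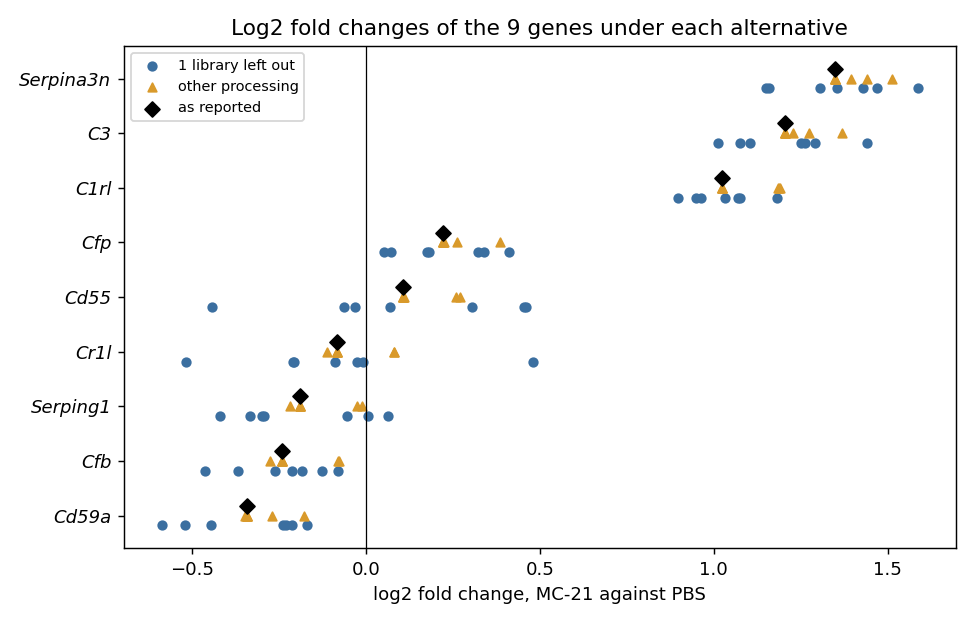
Log2 fold change (MC-21 against PBS) of each of the 9 genes as reported (diamonds), with 1 library left out (circles) and under other processing (triangles). The lowest value of C3, C1rl and Serpina3n under the 14 alternatives is 0.90, while Cd55, Cr1l and Serping1 cross 0.

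The reads behind these values could be inferred for 8 of the 9 genes. Their RPKM in all 7 libraries came within 0.05 of a whole read at some transcript length, the shortest of which was 5139 bases for C3, 3010 bases for C1rl and 2085 bases for Serpina3n. C3 then rested on 326, 984, 383 and 801 reads in PBS replicates 5 to 8 and on 1796, 591 and 1093 reads in MC-21 replicates 2 to 4. Serpina3n rested on 68 to 385 reads a library and C1rl on 23 to 89. The thinnest was Serping1, with 14 to 59 reads, where 14 reads have a 95% Poisson interval of 7.65 to 23.5 reads, which covers counting error alone. The variance between libraries of a group was 97.2 times that of counting for C3 in PBS and 31.6 times in MC-21 neutrophils. It was 9.17 and 16.8 times for Serpina3n, and 4.45 and 0.447 times for C1rl, each from 4 PBS or 3 MC-21 libraries and from inferred reads. No length from 300 to 6000 bases gave whole reads in every library for Cd55, which has 5 annotated transcripts.

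By mean RPKM in PBS neutrophils the order was Cfp (111 ± 29.7, SD, n = 4), Cd59a (77.2 ± 26.2), C3, Serpina3n, Cd55 (14.1 ± 8.72), Cr1l (11.4 ± 2.18), Cfb (7.59 ± 1.76), Serping1 (5.50 ± 2.56) and C1rl. The ranges of every pair of neighbours in that order overlapped, and C3 was above Serpina3n and Cfb above Serping1 in 4 of 4 libraries. In MC-21 neutrophils C3 stood second after Cfp (128 ± 29.5 RPKM, SD, n = 3) and C1rl seventh, above Cfb (6.34 ± 2.09 RPKM) and Serping1 (4.51 ± 1.51 RPKM) in 3 of 3 libraries. Serpina3n and Cd55 (16.2 ± 12.3 RPKM) were the only neighbours there with separate ranges. A 3′ library gives about as many reads to a short as to a long transcript, so RPKM lowers long ones. By RPM, reads scaled to depth without the division by length, C3 came first in PBS neutrophils (190 ± 78.7 RPM, SD, n = 4), followed by Cfp (181 ± 48.5) and Cd59a (144 ± 48.9). C3 led Cfp in MC-21 neutrophils too, with 422 ± 70.4 against 209 ± 48.3 RPM (SD, n = 3). Serping1 (10.0 ± 4.65 RPM) then came last in PBS neutrophils, after C1rl (12.1 ± 4.08 RPM), and Cd55 could not be placed.

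The C1q chains, which form the recognition part of the classical pathway and are made by macrophages, lay the other way. C1qb stood at 132, 164, 176 and 147 RPKM in PBS and at 65.2, 61.0 and 52.5 RPKM in MC-21 neutrophils, with no overlap. All 3 chains fell in MC-21 neutrophils (0.427% of all genes tested did), with log2 fold changes of -1.30 (SE 0.16) for C1qa, -1.36 (SE 0.15) for C1qb and -1.13 (SE 0.18) for C1qc (limma, adjusted p = 0.0139, 0.0082 and 0.0287). Only 1 of the 3 passed without PBS replicate 7 or without PBS replicate 8. With no filter on low values 1 passed, and by the unpaired test per gene on RPKM 0 did (adjusted p = 0.154 for each). The 11 monocyte and macrophage markers described below moved with them, with sums of 181 to 231 RPKM in PBS and 125 to 161 RPKM in MC-21 libraries. Of 10 tested markers, 9 were lower, as were 6655 of all 9594 genes tested. By limma 6 of the 10 were lower with an unadjusted p under 0.05 (11.2% of all genes tested). With an adjusted p under 0.05, 1 was lower (0.427% of all). The part of these cells in the levels of the C1q chains was not tested.

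Of 47 other complement genes listed, 43 were in the table, 20 were tested and 11 stayed under 1 RPKM in every library. By limma 0 of the 20 had an adjusted p under 0.05, and with an unadjusted p under 0.05 there were 0 higher (3.59% of all genes tested) and 3 lower (11.2% of all genes tested). Their median log2 fold change was -0.21, beside -0.15 for all genes tested. In the classical and lectin pathways, where 6 of 14 genes were tested, the most abundant over the 7 libraries was Fcna, a ficolin, with 15.4, 8.21, 6.28 and 12.3 RPKM in PBS and 6.38, 7.16 and 3.28 RPKM in MC-21 neutrophils. Within MC-21 neutrophils the mean of C1ra, which encodes the C1r protease, was above that of Fcna (7.31 ± 0.948 against 5.60 ± 2.05 RPKM, SD, n = 3). C1ra stood at 7.08 ± 2.03 RPKM in PBS neutrophils (SD, n = 4), and its groups overlapped. The ranges of Fcna overlapped (log2 fold change -0.79, SE 0.32; limma, unadjusted p = 0.0363, adjusted p = 0.314). Mbl2, a mannose-binding lectin, averaged 3.38 ± 1.77 RPKM in PBS and 1.44 ± 0.847 RPKM in MC-21 libraries (log2 fold change -0.82; limma, unadjusted p = 0.0397, adjusted p = 0.319). Among the receptors, Cd93, a membrane glycoprotein once described as a C1q receptor, stood at 45.6, 31.1, 40.2 and 27.6 RPKM in PBS and at 19.9, 24.0 and 23.9 RPKM in MC-21 neutrophils. The groups did not overlap, and the difference did not pass (log2 fold change -0.63, SE 0.20; limma, unadjusted p = 0.0101, adjusted p = 0.205).

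The most abundant complement receptor gene was Itgb2, the beta chain of complement receptors 3 and 4, with 218 ± 39.6 RPKM in PBS and 193 ± 13.0 RPKM in MC-21 libraries (SD, n = 4 and 3; limma, log2 fold change -0.16, adjusted p = 0.691, and 0.0046 with median centring). Among other regulators it was Thbd, thrombomodulin, with 34.4 ± 13.5 and 34.6 ± 5.85 RPKM (log2 fold change 0.059, and -0.045 without MC-21 replicate 4 or -0.079 without PBS replicate 6). Besides Cfp and Cfb, the listed genes of the alternative pathway were low, as were those of the terminal components. The most abundant of each of these lists over the 7 libraries were Cfi, which encodes factor I, with 2.41 ± 0.633 RPKM in PBS and 1.86 ± 0.324 RPKM in MC-21 neutrophils (where Cfd, factor D, stood at 1.88 ± 0.996 RPKM), and C8g, a chain of C8, with 2.32 ± 0.931 and 2.16 ± 1.73 RPKM.

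**Figure D3:**
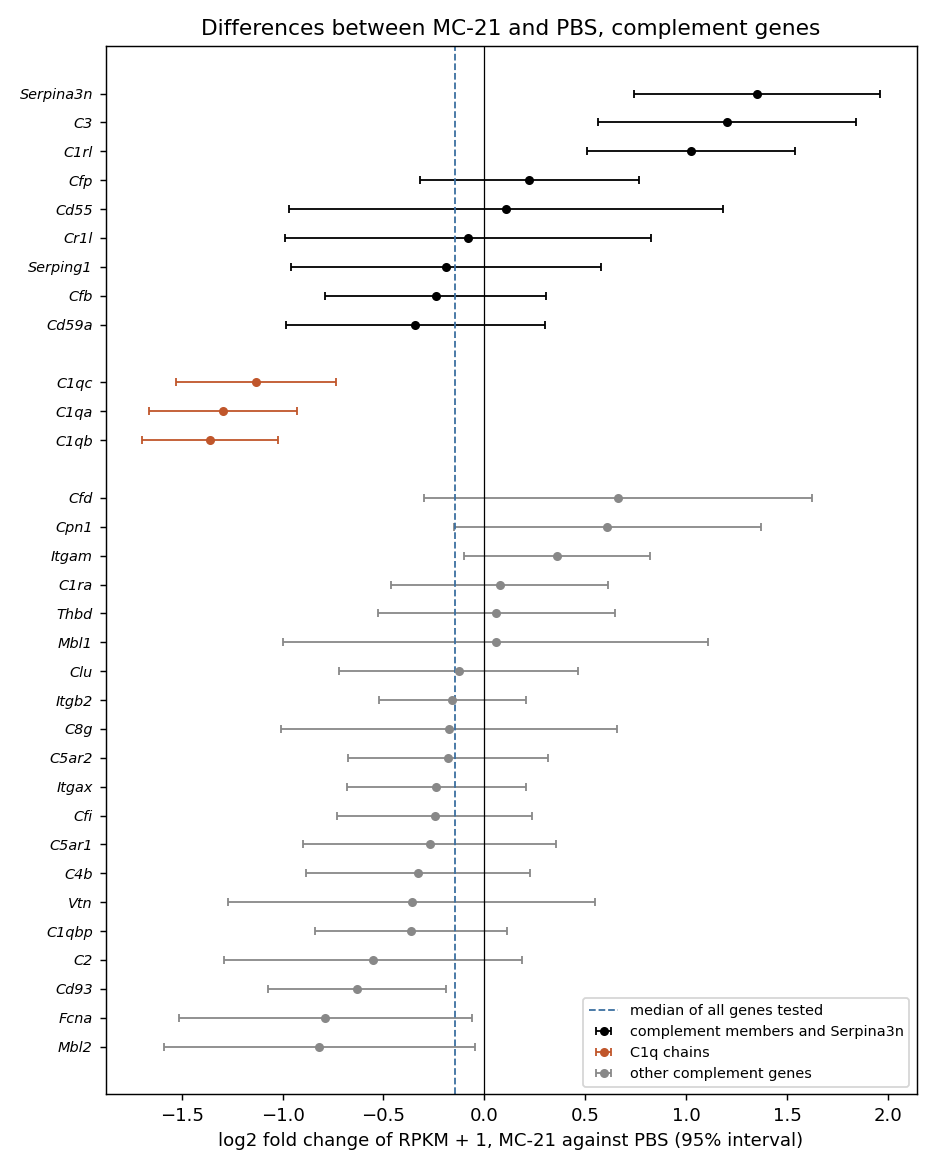
Log2 fold changes on the log2(RPKM + 1) scale, MC-21 against PBS, with 95% intervals, for the 9 genes, the 3 C1q chains and the 20 other complement genes tested. The dashed line is the median of all genes tested (-0.15), and the C1q intervals lie below it while those of C3, C1rl and Serpina3n lie above 0.

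Serpina3n lies on chromosome 12 (mm9, chr12:105644939-105652539, plus strand) in a cluster of related serpins. The table held 8 relatives, of which 6 were tested, and 4 were higher in MC-21 neutrophils with an unadjusted p under 0.05 (3.59% of all genes tested), while 0 had an adjusted p under 0.05 (limma). Serpina3g and Serpina3h came to pass with median centring (limma, adjusted p = 0.0428 and 0.0441) and without PBS replicate 6 (0.0385 and 0.0414). Serpina3g, the most abundant, stood at 59.6, 153, 104 and 105 RPKM in PBS replicates 5 to 8 and at 223, 371 and 238 RPKM in MC-21 replicates 2 to 4. The groups did not overlap (log2 fold change 1.43, SE 0.30; limma, adjusted p = 0.0739; exact permutation p = 0.0286). Serpina3h (log2 fold change 1.35, adjusted p = 0.0836) and Serpina3f (0.98, adjusted p = 0.185) also did not overlap between the groups (MC-21 above PBS in 3.1% of all genes tested), and Serpina3i (0.83, adjusted p = 0.261) did.

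In the 4 relatives MC-21 replicate 3 was the highest of all libraries, whereas in Serpina3n it was the lowest of the MC-21 libraries. PBS replicate 6 was the highest PBS library in each of the 4 and the third highest in Serpina3n. Serpina3k stood at 42.9 ± 20.2 RPKM in PBS and 35.6 ± 8.53 RPKM in MC-21 libraries (SD, n = 4 and 3), and Serpina3m at 4.85 ± 2.44 and 4.95 ± 1.22 RPKM. These genes are similar in sequence, and reads may have been split among them: 11.3% of the 50-base words of Serpina3g and 6.75% of those of Serpina3n occur in other protein-coding genes. Serpina3h is annotated as a processed transcript, so words shared with it were not counted.

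**Figure D4:**
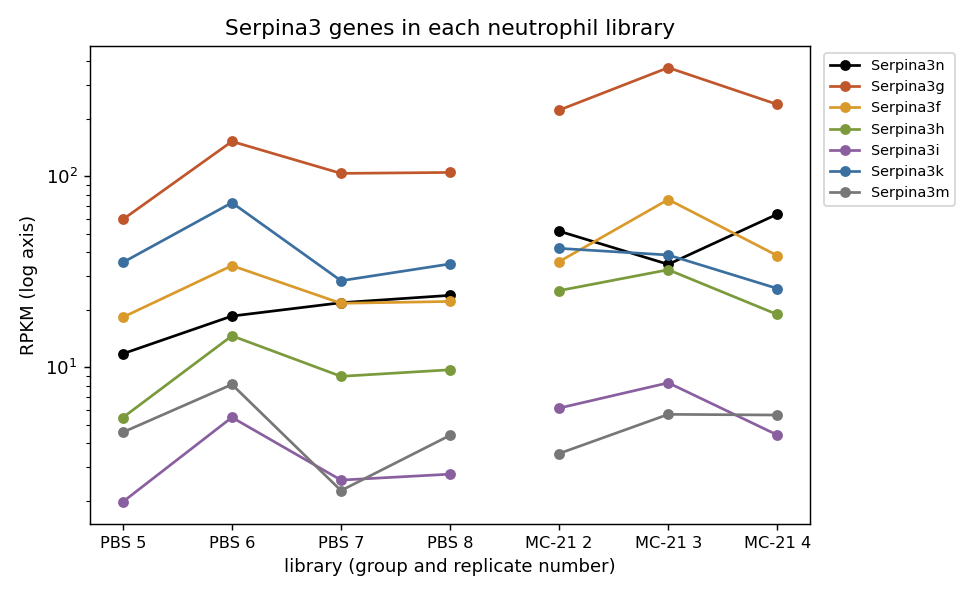
RPKM (log axis) of Serpina3n and 6 related serpins in each library. Lines join the libraries of a group for each gene and carry no order. Serpina3g, Serpina3f and Serpina3h lie higher in every MC-21 library than in any PBS library, as does Serpina3n, and Serpina3k and Serpina3m do not.

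Of 16 acute phase genes, 14 were tested and 0 had an adjusted p under 0.05 (0.625% of all genes tested), with 1 higher at an unadjusted p under 0.05 (3.59% of all genes tested). That gene was Saa3, a serum amyloid made outside the liver parenchyma as well, which stood at 39.5, 46.9, 25.5 and 81.8 RPKM in PBS and at 48.0, 201 and 144 RPKM in MC-21 neutrophils (log2 fold change 1.31, SE 0.49; limma, adjusted p = 0.274). It was 1.91 without MC-21 replicate 2 and 0.89 without MC-21 replicate 3. Lcn2, a neutrophil granule protein of the acute phase and the most abundant of the list, stood at 955 ± 443 RPKM in PBS and 1203 ± 102 RPKM in MC-21 libraries (SD, n = 4 and 3; limma, log2 fold change 0.45, adjusted p = 0.553). The median log2 fold change of the 14 was 0.45, beside -0.15 for all genes tested.

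Neutrophil markers were abundant in every library, and transcripts of other liver cells were present as well. The 8 neutrophil markers summed to between 17876 and 30404 RPKM in PBS libraries and between 27276 and 40679 RPKM in MC-21 libraries, of which S100a9 held the most (15925 ± 3602 and 21655 ± 3451 RPKM; log2 fold change 0.46, adjusted p = 0.31, limma). No neutrophil marker passed (limma, 0 of 8 with an adjusted p under 0.05, against 0.625% of all genes tested), and 3 were higher at an unadjusted p under 0.05, against 3.59%. In bulk libraries fewer cells of a type and less RNA per cell cannot be told apart.

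C3, Serping1 and Cfb are genes of hepatocytes too. The 10 hepatocyte markers summed to 368, 623, 308 and 430 RPKM in PBS replicates 5 to 8 and to 379, 479 and 301 RPKM in MC-21 replicates 2 to 4. Their ranges overlapped, 0 of 9 tested were higher or lower at an unadjusted p under 0.05 (3.59% and 11.2% of all genes tested), and the most abundant, Apoa1, stood at 81.0 ± 33.3 and 68.6 ± 12.4 RPKM. PBS replicate 6, the highest for hepatocyte markers, was also the highest PBS library for C3 and C1rl. Among MC-21 libraries, replicate 3 was the highest for these markers and for C1rl but the lowest for C3. Pearson's r with the hepatocyte sum over the 7 libraries was 0.20 for C3, 0.74 for Serping1 and 0.63 for Cfb. It was 0.057 for C1rl and -0.32 for Serpina3n. For the deviations from the group means r was 0.69 for C3, 0.73 for Serping1, 0.61 for Cfb, 0.53 for C1rl and -0.30 for Serpina3n. The 11 monocyte and macrophage markers summed to between 181 and 231 RPKM in PBS and between 125 and 161 RPKM in MC-21 libraries, without overlap, and so lay in the direction opposite to C3, C1rl and Serpina3n. Of 10 tested, 1 fell (0.427% of all genes tested): Ccr2, the receptor that MC-21 binds, stood at 1.91, 3.26, 2.30 and 2.18 RPKM in PBS and at 0.390, 0 and 0.200 RPKM in MC-21 neutrophils (log2 fold change -1.51; limma, adjusted p = 0.0263). The call of Ccr2 was lost under 8 of 13 alternatives, with adjusted p from 0.0222 to 0.228 over the 13, and its log2 fold change was -3.33 with a pseudocount of 0.1. Csf1r, the most abundant of the list over the 7 libraries, averaged 62.2 ± 16.6 and 40.7 ± 8.12 RPKM (log2 fold change -0.58; limma, adjusted p = 0.307).

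Endothelial markers were the most abundant of the non-neutrophil marker lists, with sums of 2817, 1924, 1369 and 2515 RPKM in PBS replicates 5 to 8 and of 1576, 2457 and 1411 RPKM in MC-21 replicates 2 to 4. The most abundant of them was Clec4g, a lectin of liver sinusoidal endothelium (1125 ± 457 and 980 ± 498 RPKM, log2 fold change -0.19, and 0.12 without MC-21 replicate 4). Cd59a followed the sum of these markers across the 7 libraries: PBS replicates 5 and 8 and MC-21 replicate 3 were the 3 highest for both. Pearson's r on the log2 scale was 0.88 over the 7 libraries and 0.87 for the deviations from the group means, as a description of libraries that share their depth. Among the 63 pairs of a member and a marker list, Cd55 with the stellate cell and fibroblast sum was higher (r = 0.90, and 0.96 within groups). With the neutrophil sum, r within groups was -0.92 for C3, -0.89 for Serping1 and -0.88 for Cd55. Over the 7 libraries these were 0.24, -0.75 and -0.56. Cd59a was the only member with a positive r within groups there (0.41). The parts of these cells in the levels of C3, Cd59a and the other genes were not tested.

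Stellate cell and fibroblast markers summed to between 4.94 and 12.5 RPKM in the 7 libraries, with 1 of 8 at 0 throughout and Dcn the most abundant (4.67 ± 1.75 RPKM in PBS and 5.07 ± 3.79 RPKM in MC-21 neutrophils). Lymphocyte markers summed to between 5.48 and 18.2 RPKM, with Nkg7 the most abundant (4.90 ± 2.09 and 4.73 ± 4.08 RPKM). Platelet markers summed to between 88.7 and 256 RPKM in PBS and between 47.8 and 74.3 RPKM in MC-21 libraries, of which Pf4 held the most (128 ± 79.6 and 47.5 ± 12.3 RPKM; log2 fold change -1.26, adjusted p = 0.194, limma). Neither the platelet sums nor Pf4 overlapped between the groups, with the MC-21 libraries lower, while Itga2b was higher in every MC-21 library (3.56 to 4.32 RPKM) than in any PBS library (2.30 to 3.26 RPKM). The median log2 fold change of the 5 platelet markers was -0.010.

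**Figure D5:**
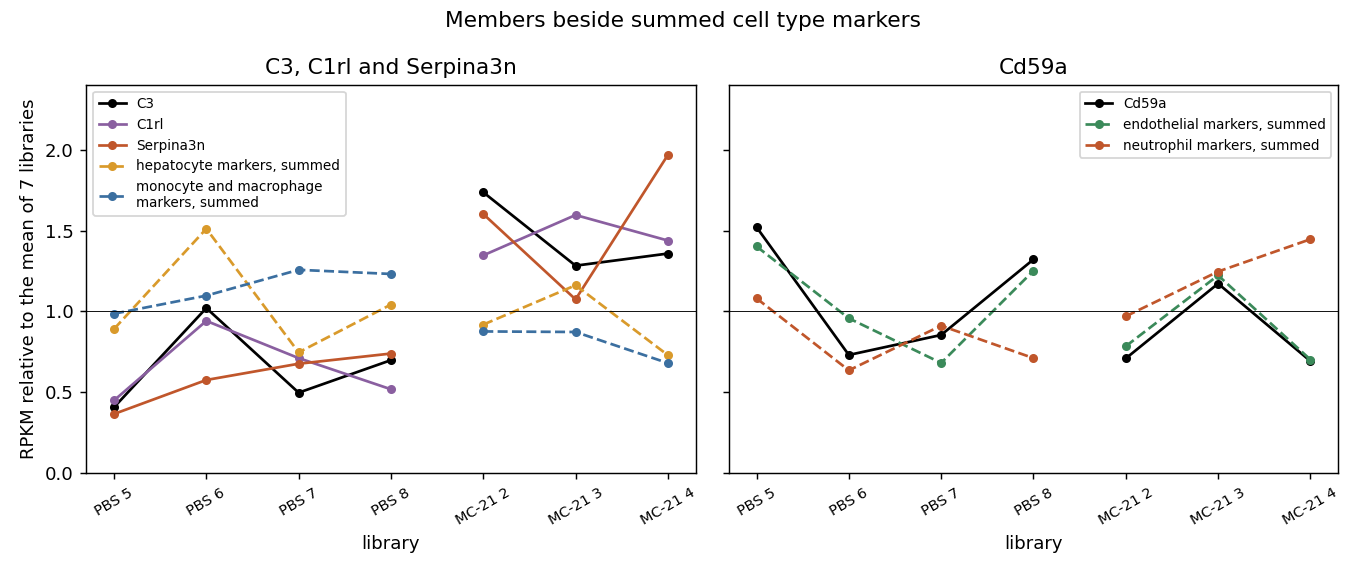
Levels relative to the mean of the 7 libraries for C3, C1rl and Serpina3n beside summed hepatocyte and macrophage markers (left), and for Cd59a beside summed endothelial and neutrophil markers (right). Lines join the libraries of a group and carry no order. Hepatocyte sums overlap between the groups, macrophage sums are lower in MC-21, and Cd59a runs close to the endothelial sum.

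The genes whose levels were most like those of each member over the 7 libraries were sought among the 5860 genes that averaged 5 RPKM or more. For C3 they included Ffar2, a receptor for short-chain fatty acids, and Jak2, a cytokine receptor kinase, with Pearson's r of 0.99 each. Ffar2 ran from 0.768 RPKM in PBS replicate 5 and 17.3 RPKM in PBS replicate 6 to 40.1 RPKM in MC-21 replicate 2, the same lowest, highest PBS and highest library as C3. For C1rl they were Creb3l1 (r = 0.99), Slfn1 (0.99) and Cd300ld (0.98), of which Cd300ld rose in MC-21 neutrophils (log2 fold change 0.95; limma, adjusted p = 0.0415). For Serpina3n they were Slc15a3 (r = 0.99), Jdp2 (0.99) and Cda (0.98). Within groups, r was between 0.91 and 0.99 for the pairs named with C3, C1rl and Serpina3n.

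Cd59a was most like Gpr182 (r = 0.98), an endothelial receptor gene at 582, 317, 336 and 544 RPKM in PBS and 318, 448 and 322 RPKM in MC-21 neutrophils, and then Nf2 and Trim8 (0.98 each). Cfp was most like Rbm25 (r = 0.98), Chmp2b (0.97) and Rgs14 (0.97). Cfb was most like Pdia4 (0.98), Pdha1 (0.94) and Parp14 (0.94). Cd55 was most like Etv3 (0.97), Sdf2 (0.97) and Nfkb1, a subunit of NF-kappaB (0.96). Cr1l was most like Oser1 (0.99), Eif5 (0.98) and Eif2ak3 (0.98), and Serping1 like Mien1 (0.97), Lifr (0.97) and Fam105a (0.96).

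On mm9 the remaining genes lie at chr17:57343397-57367559 for C3, chr17:34993319-34999463 for Cfb, chrX:20502580-20508681 for Cfp, chr1:132335604-132359321 for Cd55, chr1:196929983-196957764 for Cr1l and chr2:84605544-84615601 for Serping1, all on the minus strand. C1rl lies at chr6:124443131-124460661 and Cd59a at chr2:103935958-103955511 on the plus strand. Of the words of Cd55, 9.62% occur in its neighbour Daf2, and 3.87% of those of Cd59a occur in Cd59b, so that reads of these pairs may have been mixed. C3, C1rl, Cfp, Cr1l and Serping1 shared 0 words with other protein-coding genes.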

How the data were processed

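Neutrophils of 4 PBS and 3 MC-21 livers were measured by 3′ RNA-seq. The authors mapped reads to mm9 with HISAT 0.1.5 and deposited RPKM values per gene from Partek 6.6 (submitters' processing notes); the handling of shared reads and of strand is not given in the sources used here. RPKM divides by transcript length, which 3′ reads do not follow. Depth was inferred from low values, of which 72.6% to 74.8% a library lay within 0.1 of a whole read.

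Genes averaging 1 RPKM or more, 9594 in all, were tested on log2(RPKM + 1), in which a fold change understates that of low genes, with limma 3.58.1 (trend) in R 4.3.3 and Benjamini-Hochberg adjustment over all of them. Single genes also had a two-sided exact permutation test (scipy 1.17.1). The labels number the replicates, and the study describes sorting per liver, so each library was taken as a separate liver. The limma p-values weigh the group difference against the spread between libraries of a group. In a simulation of this comparison over 9594 genes, 185 of 200 genes changed by 2 on the log2 scale were recovered. The simulation also called 7 unchanged genes. The log2 fold changes of C3, C1rl and Serpina3n were smaller, at 1.20, 1.02 and 1.35, and recovery at such sizes was not tested.

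The members and lists were chosen with earlier results of these data known. All 9 members were named, with those genes of the complement, acute phase and Serpina3 lists with an unadjusted p under 0.05, the most abundant gene of each list, marker genes with an adjusted p under 0.05, and the 3 genes most like each member. C1ra, Itga2b, Cfd, Serpina3k and Serpina3m were named after their values were seen. Of 143 list genes, 137 were in the table; those that were not include Fcnb, C7, Cd59b, Serpina3a and Serpina3j. Of the genes most like C3, 1 is not reported here. Whole reads were sought at lengths of 300 to 6000 bases. Coordinates and shared 50-base words are from the GENCODE annotation of mm9 and promoters from RefSeq. Alternatives were a pseudocount of 0.1, no filter, a minimum of 5 RPKM, quantile normalization, median centring, no trend, a per-gene test on RPKM, leaving out each library, and levels without division by length.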

Additional observations from a re-analysis of the deposited data

Results flagged for a closer look

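In PBS neutrophils, 1 library stood apart from the other 3 by Dixon's ratio for Cd55 and for C1qc. Cd55 was at 27.0 RPKM in PBS replicate 6, against 8.54 to 11.5 RPKM in the others (ratio 0.837). C1qc was at 67.4 RPKM in PBS replicate 7, against 78.1 to 79.9 RPKM in the others (ratio 0.851). Chance gives about 1 such group in 20, and 2 of 40 genes and marker sums had one.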

How the results depend on the processing

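C3, C1rl and Serpina3n kept their direction under all 14 alternatives. Of 126 values of the 9 genes, 115 kept direction and side of the threshold, 3 came to pass and 8 turned their sign, in Cd55, Cr1l and Serping1, whose values are given above. The number of the 9 genes with an adjusted p under 0.05 was 0 as reported, 1 with median centring and, with 1 library left out, between 0 and 2 (2 without PBS replicate 6). Genes called among all tested were 60 as reported, 6 with no filter on low values, 5 with the test per gene on RPKM and between 9 (without PBS replicate 8) and 102 (without PBS replicate 6) with 1 library left out. The C1q chains called were 3 as reported, 1 with no filter, 0 by the test per gene (unadjusted p between 0.000521 and 0.000563) and between 1 and 3 with 1 library left out. With 1 library left out, log2 fold changes ran from -0.44 to 0.46 for Cd55, -0.52 to 0.48 for Cr1l, -0.42 to 0.064 for Serping1, -0.59 to 0.21 for C8g, -0.079 to 0.30 for Thbd, -0.40 to 0.076 for Apoa1, -0.58 to 0.12 for Clec4g, -0.50 to 0.25 for Dcn and -0.78 to 0.28 for Nkg7. Cr1l also turned to 0.080 and Dcn to 0.16 with quantile normalization, and Cr1l to 0.082, Dcn to 0.14 and Itgb2 to 0.0046 with median centring. The cause was not tested. No paired analysis was possible because the groups share no replicate numbers. Of the 8 genes with inferred reads, Serping1, Cr1l and C1rl had the fewest, with as few as 14, 20 and 23 reads a library. For Cr1l the variance between libraries was 2.46 times that of counting in PBS and 24.9 times in MC-21 neutrophils.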
